A study of Mus musculus with 22 samples.

Results

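Amot and 9 other genes of the Hippo pathway were followed in mouse embryonic stem (mES) cells, in endoderm cultures and in gastruloids, with and without functional Hox genes. They are the angiomotin genes Amot, Amotl1 and Amotl2, the kinase gene Lats2, the coactivator genes Yap1 and Wwtr1 (which encodes TAZ), and the transcription factor genes Tead1, Tead2, Tead3 and Tead4. The genes were chosen by symbol, and they are 10 of the 55141 genes in the deposited gene-level tables. Amot was picked from its difference between Activin A and Chiron gastruloids at 120 h, so its values in that comparison are a description and carry no test.

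The Hippo pathway is a kinase cascade in which MST kinases activate LATS kinases, and LATS phosphorylates YAP and TAZ. Phosphorylated YAP and TAZ are held in the cytoplasm or degraded, whereas unphosphorylated YAP and TAZ enter the nucleus and bind TEAD factors on their target genes. Angiomotins are scaffold proteins of tight junctions and of the actin cytoskeleton that bind YAP and activate LATS. In the early mouse embryo this pathway separates the outer trophectoderm from the inner cells, and the angiomotins act in the inner cells to keep YAP out of the nucleus.

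The study measured polyadenylated RNA by bulk RNA-seq in 22 libraries of 10 groups, from wild-type (wt) cells and from Hox-/- cells, which the series title describes as lacking all Hox function. The mES cells of both genotypes (n = 2 libraries each) were grown in 2i LIF medium with 3 µM CHIR99021, a GSK3 inhibitor, and 1 µM of a MEK1/2 inhibitor. Endoderm cultures of both genotypes (n = 3 each) received 100 ng/ml Activin A and 3 µM CHIR99021 at 24 h and 72 h and were collected at 120 h. Gastruloids are aggregates of mES cells that form the body axis in culture. Wild-type gastruloids made with Chiron, the GSK3 inhibitor, and wild-type and Hox-/- gastruloids made with Activin A were collected at 96 h and at 120 h (n = 2 for each of the 6 groups). Activin A is a Nodal-type ligand used to direct cells to endoderm. Doses for the gastruloids are not in the labels, which call them mixed cells, and there is no Hox-/- Chiron group. Neither the number of Hox-/- clones nor whether replicates came from separate cultures is given in the sources used here, so a p-value measures only the spread between these libraries, which may be technical.

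The libraries held 9.11 to 28.8 M (M for 1000000) counts in genes, and the 120 h gastruloids, at 9.11 to 11.9 M, held fewer than the 96 h gastruloids. The summed level of 39 Hox genes checked the genotype labels. It was 33.1, 859, 643 and 1179 counts per 1000000 counts of the library (CPM) in wild-type mES cells, endoderm cultures and Activin A gastruloids at 96 h and 120 h, against 0.896, 25.8, 103 and 66.6 CPM in the matching Hox-/- groups. A sum of 4 Y-linked genes and Xist was 102 to 185 CPM in wild-type libraries and 0.0747 to 1.67 CPM in Hox-/- libraries. Amot lies on the X chromosome, and the median log2 fold change of all X-linked genes tested between Hox-/- and wild type was -0.004 in mES cells, 0.006 in endoderm cultures, and 0.10 and -0.05 in Activin A gastruloids at 96 h and 120 h. The part of this difference between the lines in the results on Amot was not tested. Replicates of a group differed by more than sampling noise, at a chi-square of their counts over its degrees of freedom between 1.37 and 4.76, and 10.3 in Chiron gastruloids at 96 h.

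The stretches upstream of the start sites of the 3 angiomotin genes are shown because these genes share a protein family yet had different expression patterns across the groups. RefSeq's table (build GRCm38.p6) held start sites for 8 of the 10 genes, and it was not matched for Tead1 and Tead4. Each stretch is the 250 bases before the start site, written 5′ to 3′ in the direction of the gene. Capitals mark a match of the TEAD motif GGAATG, here read as CATTCC on the opposite strand. The stretches lie at chrX:145487640-145487889 on the minus strand (Amot), at chr9:14615001-14615250 on the minus strand (Amotl1) and at chr9:102717554-102717803 on the plus strand (Amotl2).
Amot: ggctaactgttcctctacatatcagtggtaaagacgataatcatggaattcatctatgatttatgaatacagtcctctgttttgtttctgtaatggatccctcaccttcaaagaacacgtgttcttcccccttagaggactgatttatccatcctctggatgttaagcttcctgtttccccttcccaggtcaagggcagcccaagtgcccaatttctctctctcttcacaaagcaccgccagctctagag
Amotl1: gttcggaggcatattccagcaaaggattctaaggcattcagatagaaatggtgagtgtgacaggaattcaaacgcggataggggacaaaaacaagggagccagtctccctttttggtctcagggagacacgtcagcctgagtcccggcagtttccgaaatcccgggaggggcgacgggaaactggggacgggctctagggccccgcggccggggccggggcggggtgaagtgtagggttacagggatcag
Amotl2: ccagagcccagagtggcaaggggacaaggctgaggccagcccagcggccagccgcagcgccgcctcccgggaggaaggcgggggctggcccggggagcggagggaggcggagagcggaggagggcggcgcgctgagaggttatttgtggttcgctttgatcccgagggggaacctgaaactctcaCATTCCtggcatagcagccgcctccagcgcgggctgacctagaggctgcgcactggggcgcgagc

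The window of 250 bases before to 50 bases after the start site was 46.0% G or C for Amot, 61.3% for Amotl1 and 68.7% for Amotl2. It held 7, 21 and 26 CG dinucleotides. The median window in the table was 52.7% G or C with 7 CG, and 26.2% of all 32851 windows had a G or C content at or under that of Amot. The start sites lay 17542 (Amot), 30056 (Amotl1) and 1132 (Amotl2) bases inside the 5′ end of the gene models, so other start sites of these genes are not covered. In Amotl2 the TEAD match lay 65 to 60 bases before the start site. Of all windows, 14.7% held GGAATG on either strand. Windows of Yap1, Wwtr1, Tead3 and Lats2 also held it, and that of Tead2 did not. The motifs AATNCACA of FOXH1, TGTTTAC of FOXA factors and GGTGTGA of T-box factors, searched on both strands, were in 3.6%, 3.65% and 3.98% of all windows. None of the 4 motifs was in the Amot or Amotl1 window, and a window of Tead3 held the FOXH1 motif. A match is a run of letters and does not show binding.

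Amot (ENSMUSG00000041688, mm10 chrX:145446425-145505181, minus strand, no overlapping gene in the annotation) had the widest range of the 10 genes. In mES cells it was near the lower end of what was measured, at 2.12 and 1.63 CPM in the 2 wild-type libraries and 1.57 and 0.924 CPM in the 2 Hox-/- libraries, which is 11 to 32 counts a library. In wild-type endoderm cultures it was 832, 762 and 740 CPM, and in Hox-/- endoderm cultures 289, 302 and 285 CPM. The wild-type endoderm cultures were therefore the highest group, and no Hox-/- endoderm library reached a wild-type one.

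Gastruloids lay between these ends. Chiron gastruloids had 131 and 120 CPM at 96 h and 55.8 and 52.5 CPM at 120 h. Wild-type Activin A gastruloids had 485 and 517 CPM at 96 h and 511 and 516 CPM at 120 h. Hox-/- Activin A gastruloids had 277 and 291 CPM at 96 h and 148 and 146 CPM at 120 h. Ordered by mean CPM, the groups were wild-type endoderm (778 ± 47.9, SD), wild-type Activin A at 120 h (514 ± 3.04) and 96 h (501 ± 22.8), Hox-/- endoderm (292 ± 8.92), Hox-/- Activin A at 96 h (284 ± 9.85) and 120 h (147 ± 1.26), Chiron at 96 h (126 ± 7.43) and 120 h (54.2 ± 2.36), and the mES cells. Only 2 neighbouring pairs in this order had overlapping libraries, namely the wild-type Activin A gastruloids at the 2 times, and Hox-/- endoderm beside Hox-/- Activin A gastruloids at 96 h.

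**Figure D1:**
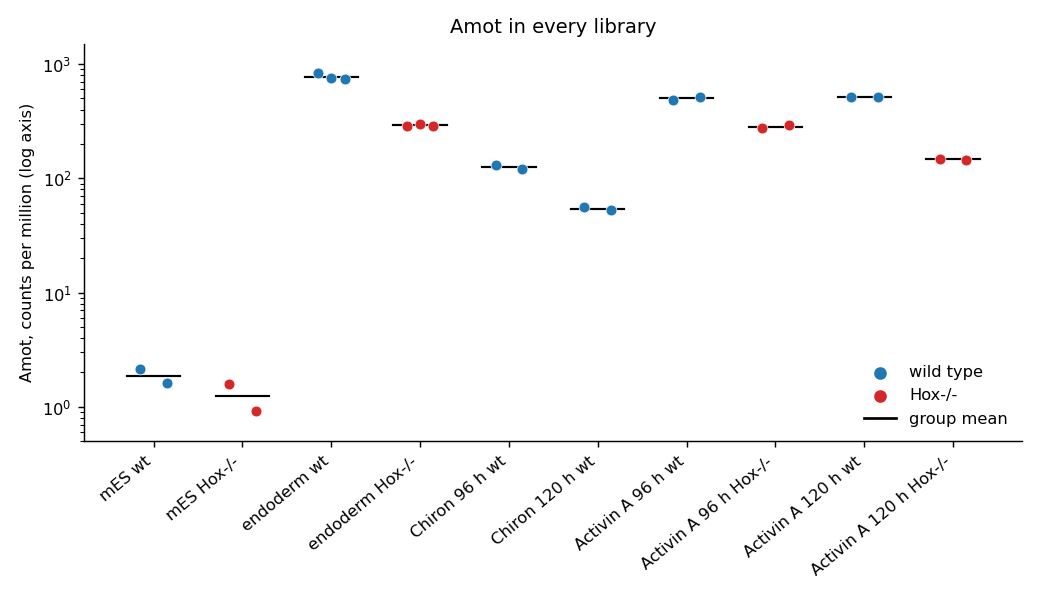
Amot level in each library, in CPM on a log axis, for the 10 groups. Points are libraries and short bars are group means. The 4 mES libraries sit between 0.924 and 2.12 CPM, and all other libraries lie between 52.5 and 832 CPM.

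The highest group mean of Amot was 624 times the lowest. On the log2(CPM + 1) scale this range was wider than that of 99.8% of the 13272 genes that reached 5 CPM in at least 1 group mean. The same ratio was 34.4 for Tead4, 20.8 for Tead3, 15.7 for Lats2, 6.57 for Tead2, 4.10 for Amotl2, 3.79 for Wwtr1, 3.17 for Amotl1, 2.59 for Tead1 and 1.65 for Yap1. Yap1 had a wider range than only 12.5% of the same genes.

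Between mES cells and endoderm cultures, wild-type Amot rose by a log2 fold change of 8.55 ± 0.11, and Hox-/- Amot by 7.76 ± 0.12 (edgeR's quasi-likelihood test, Benjamini-Hochberg adjusted p = 3.3e-22 and 2.5e-21). Here and below, ± after a log2 fold change is that change divided by the square root of its F statistic, an approximate standard error (SE). It can be too small for a large change that starts from few counts, as the rises from mES cells do. A difference between the 2 rises of Amot, -0.80 ± 0.32, did not pass the test (adjusted p = 0.075). The mES libraries held few Amot counts. Without Hox-/- mES replicate 2 it was -1.11 with adjusted p = 0.039, and without Hox-/- mES replicate 1 it was -0.36.

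The Hox-/- groups had less Amot than wild type outside mES cells. The log2 fold change was -1.41 ± 0.053 in endoderm cultures, which is 2.65-fold lower (adjusted p = 6.6e-11, 3 against 3 libraries). The Activin A gastruloids had -0.77 ± 0.039 at 96 h, 1.70-fold lower (adjusted p = 1.3e-22). At 120 h it was -1.69 ± 0.044, 3.24-fold lower (2 against 2 libraries at each time). Amot was named from the wild-type 120 h gastruloid libraries, so its comparisons that use them are given as values with no p. In mES cells the difference was -0.58 ± 0.34 (adjusted p = 0.23). The mES libraries did not overlap between the genotypes and held few counts of Amot.

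The genotype difference in Activin A gastruloids was larger at 120 h than at 96 h. The interaction was -0.93 ± 0.059 on the log2 scale. It came with a fall of Hox-/- Amot between the 2 times (-0.97 ± 0.044, adjusted p = 4.7e-25), while the wild-type value was -0.04 ± 0.039. On log2(FPKM + 0.1) values, where FPKM is a fragment count scaled to gene length and library size, limma gave the interaction as -0.86. The wild-type 120 h libraries enter this interaction too.

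In wild-type gastruloids at 96 h, Activin A gave 3.82-fold more Amot than Chiron did (log2 fold change 1.94 ± 0.052, adjusted p = 1.2e-19). At 120 h, the comparison from which Amot was named, the means were 514 and 54.2 CPM, a ratio of 9.48. Between 96 h and 120 h in Chiron gastruloids the log2 fold change of Amot was -1.31 ± 0.063, which also rests on libraries it was named from. These comparisons share the wild-type Activin A libraries with the genotype comparisons, so they are not independent of them.

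Endoderm markers were lower, as Amot was, in Hox-/- groups outside mES cells and in Chiron against wild-type Activin A gastruloids. Markers of other cell types differed too, some of them in the opposite direction to Amot. In these bulk samples fewer cells of a type and less RNA per cell cannot be told apart. The summed CPM of 14 endoderm and epithelial marker genes was 1187 to 1190 in wild-type and 718 to 772 in Hox-/- endoderm cultures. For Activin A gastruloids it was 1278 to 1419 against 605 to 619 at 96 h, and 1179 to 1181 against 208 to 213 at 120 h. Chiron gastruloids had 304 to 319 at 96 h and 123 to 125 at 120 h. Of the endoderm genes tested, 12 of 12 were lower in Hox-/- endoderm cultures, and 10 of 14 and 12 of 14 were lower in Hox-/- Activin A gastruloids at 96 h and 120 h. Of all genes tested, 23.1%, 16.7% and 25.5% were lower in these comparisons. Sox17, which encodes an endoderm transcription factor, had 24.5 against 4.89 CPM in endoderm cultures, 61.0 against 2.08 at 96 h and 57.3 against 3.78 at 120 h. Foxa2, another endoderm factor, had 18.6 against 4.18, 80.8 against 9.60 and 63.1 against 1.93 CPM. Sox17 and Foxa2 were at 1.43 and 1.59 CPM in Chiron gastruloids at 96 h.

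The ratio of wild type to Hox-/- was 2.67 for Amot beside 1.58 for the summed markers in endoderm cultures. In Activin A gastruloids it was 1.765 beside 2.203 at 96 h and 3.50 beside 5.61 at 120 h. A sum is weighted to its abundant genes, and Sox17 and Foxa2 were a small part of it. By the values above, these endoderm factors fell further than Amot in each of these genotype comparisons. The median log2 fold change of the 12 markers tested in endoderm cultures was -1.03. The ratio of Activin A to Chiron was 3.99 for Amot beside 4.33 for the markers at 96 h, and 9.48 beside 9.52 at 120 h. From mES cells to wild-type endoderm cultures the ratio was 414 for Amot and 1.89 for the markers. The mES sum of 627 to 660 CPM was mostly Cdh1, the E-cadherin gene, at 595 CPM in the wild-type cells and 629 CPM in the Hox-/- cells, with Sox17 and Foxa2 at or under 0.20 CPM and Ttr and Afp at 0.

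Other marker sums also differed. Wild-type against Hox-/- endoderm cultures had 915 to 1058 against 285 to 297 CPM of 9 pluripotency genes. In Activin A gastruloids that sum was 1651 to 1669 against 1170 to 1177 CPM at 96 h and 133 to 136 against 43.0 to 46.4 CPM at 120 h. At 120 h the sum of 8 neural genes was 92.3 to 92.9 against 29.7 to 31.2 CPM, with 7 of 8 lower, and that of 8 endothelial and blood genes was 38.9 to 44.8 against 67.7 to 69.0 CPM, with 5 of 7 tested higher. The sum of 6 trophectoderm genes was 174 to 195 against 96.6 to 103 CPM in endoderm cultures, 175 to 187 against 32.4 to 37.1 CPM in Activin A gastruloids at 96 h, and 53.8 to 62.5 against 18.8 to 21.6 CPM at 120 h. In endoderm cultures the neural sum was lower in wild type, at 9.73 to 12.8 against 41.3 to 51.4 CPM. The sum of 7 cardiac genes was lower too, at 67.0 to 88.9 against 117 to 127 CPM. Of the 6 cardiac genes tested there, 1 was called higher and 3 lower in Hox-/-, beside 23.1% of all genes in each direction. The sum of 9 presomitic and somitic genes was 464 to 469 CPM in wild-type and 908 to 916 CPM in Hox-/- Activin A gastruloids at 120 h, where 8 of 9 were called higher. Of all genes tested at 120 h, 24.9% were called higher and 25.5% lower. The part of these cell-type differences in the result on Amot was not tested.

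**Figure D2:**
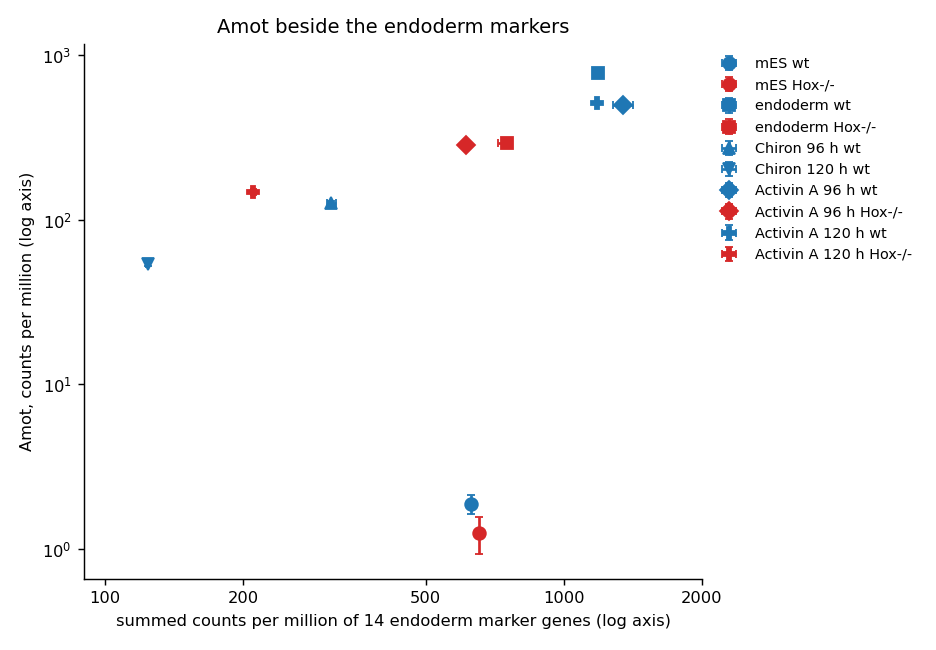
Amot level against the summed level of 14 endoderm and epithelial marker genes, both in CPM on log axes, with 1 point per group at the means and bars over the range of its libraries. In the endoderm and Activin A pairs the wild-type groups lie above the Hox-/- groups on both axes. The mES libraries have a marker sum of 627 to 660 CPM with Amot at 0.924 to 2.12 CPM.

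Amotl1 and Amotl2 encode the other angiomotins and had narrower ranges than Amot. Amotl1 (chr9:14541966-14645056, minus strand, overlapped by 2 other genes) had 52.3 and 52.9 CPM in wild-type and 61.2 and 65.7 CPM in Hox-/- mES cells. Wild-type endoderm cultures had 103, 110 and 117 CPM, and Hox-/- ones 151, 151 and 144 CPM. In Activin A gastruloids it had 69.0 and 72.5 CPM (wild type) and 70.2 and 72.1 CPM (Hox-/-) at 96 h, and 139 and 142 against 165 and 168 CPM at 120 h. The genotypes overlapped at 96 h alone, and elsewhere the Hox-/- libraries were the higher ones. Amotl1 was higher in Hox-/- mES cells (log2 fold change 0.27 ± 0.067, adjusted p = 0.0031), endoderm cultures (0.45 ± 0.056, adjusted p = 1.7e-05) and 120 h Activin A gastruloids (0.35 ± 0.047, adjusted p = 1.0e-08). The difference at 96 h was 0.06 ± 0.048, and the interaction of genotype and time was 0.30 (adjusted p = 0.00033). The mES call was lost without wild-type replicate 1 (adjusted p = 0.063).

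Where Amot was high under Activin A at 96 h, Amotl1 was low. Chiron gastruloids had 139 and 131 CPM of Amotl1 at 96 h, 1.99-fold more than wild-type Activin A gastruloids (-0.99 ± 0.056, adjusted p = 1.7e-13). They had 168 and 156 CPM at 120 h. Amotl1 rose between the times in wild-type (0.91 ± 0.048) and Hox-/- (1.21 ± 0.047) Activin A gastruloids (adjusted p = 1.3e-22 and 5.0e-28), and by 0.16 ± 0.055 in Chiron gastruloids, a call lost without Chiron 120 h replicate 1 (adjusted p = 0.31).

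Amotl2 (chr9:102716672-102733418, plus strand), itself a known YAP and TEAD target, was the main angiomotin of mES cells. It had 129 and 128 CPM in wild-type and 123 and 103 CPM in Hox-/- mES cells. Endoderm cultures varied more between libraries, at 134, 150 and 177 CPM for wild type and 139, 104 and 119 CPM for Hox-/-, and these libraries overlapped. Gastruloids had less, at 37.0 to 61.7 CPM. Amotl2 was lower in Hox-/- mES cells (-0.19 ± 0.061, adjusted p = 0.024) and endoderm cultures (-0.34 ± 0.10, adjusted p = 0.014). The mES call was lost without wild-type replicate 1 or 2 or Hox-/- replicate 2 (adjusted p up to 0.43), and the endoderm call without wild-type replicate 3 or Hox-/- replicate 2 (adjusted p up to 0.061).

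The Amotl2 difference in Activin A gastruloids turned with time. At 96 h the Hox-/- libraries, at 60.9 and 60.0 CPM, lay above the wild-type ones at 45.5 and 46.1 CPM (0.45 ± 0.052, adjusted p = 4.8e-10). At 120 h they lay below, at 38.0 and 37.0 against 51.6 and 51.7 CPM (-0.35 ± 0.072, adjusted p = 5.2e-05). The interaction was -0.80 ± 0.089 (adjusted p = 1.9e-10).

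Levels of different genes were compared on the deposited FPKM, which divides by gene length. Of the summed FPKM of the 3 angiomotins, Amotl2 made up 83.2% in wild-type and 79.1% in Hox-/- mES cells, where Amot made up 0.92% and 0.69%. Amot made up 71.7% in wild-type and 47.3% in Hox-/- endoderm cultures. In Activin A gastruloids its share was 78.9% against 64.1% at 96 h and 74.8% against 47.1% at 120 h. In Chiron gastruloids it was 38.8% at 96 h and 19.3% at 120 h, where Amotl1 held the highest share at 44.2%. The summed FPKM was 171 in wild-type and 84.1 in Hox-/- endoderm cultures, 94.4 and 46.3 in Activin A gastruloids at 120 h, and 38.4 and 36.3 in mES cells. Amot FPKM varied more between libraries than its CPM did in Activin A gastruloids at 120 h (70.8 ± 11.2 in wild type and 21.9 ± 4.29 in Hox-/-, SD, n = 2).

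**Figure D3:**
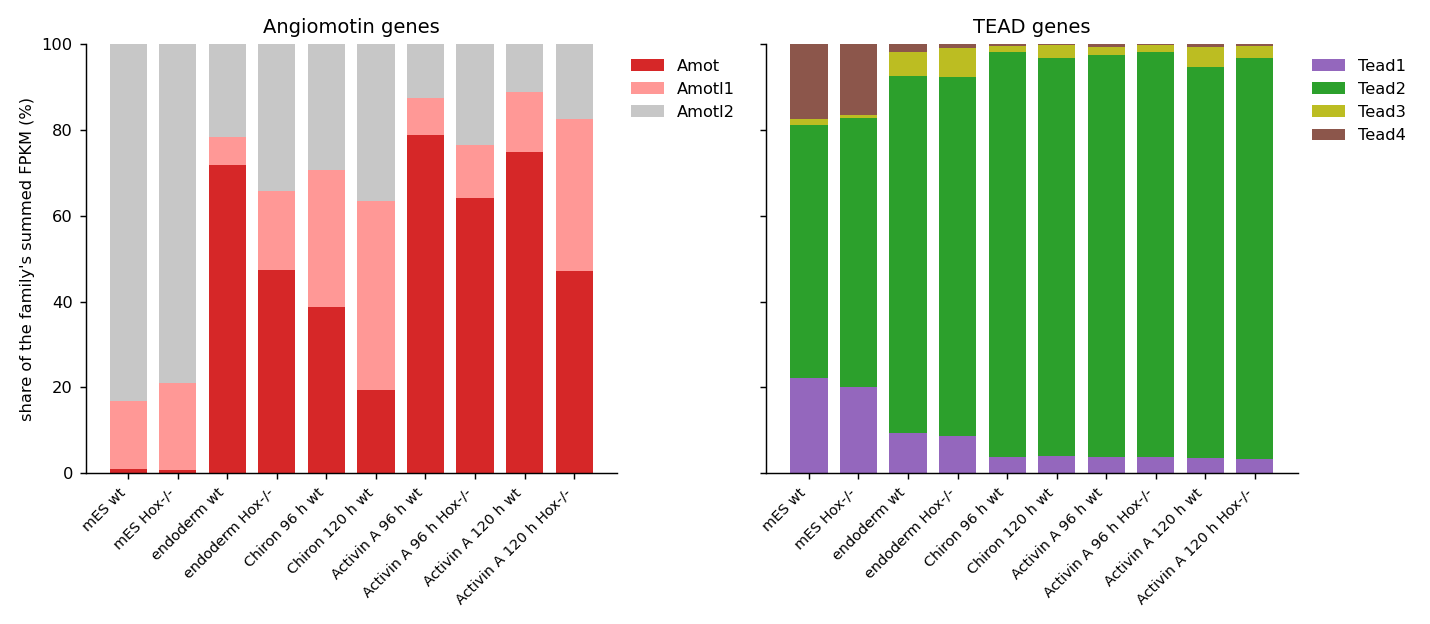
Shares of the summed deposited FPKM within the angiomotin genes (left) and within the TEAD genes (right), in percent, as stacked bars of group means from 0 to 100 for the 10 groups. Amotl2 fills most of the angiomotin bar in mES cells and Amot most of it in the wild-type endoderm and Activin A groups, and Tead2 fills most of the TEAD bar in every group.

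Lats2, the kinase gene (chr14:57689662-57758388, minus strand), shares its strand and part of its span with a protein-coding gene model, so its counts are uncertain. It had 5.64 and 6.45 CPM in wild-type and 2.76 and 1.85 CPM in Hox-/- mES cells. In endoderm cultures it had 26.8, 27.6 and 32.9 CPM in wild type and 38.7, 34.0 and 35.7 CPM in Hox-/-. The Hox-/- libraries were the lower ones in mES cells and the higher ones in endoderm cultures, with no overlap in either. Lats2 was lower in Hox-/- mES cells (-1.37 ± 0.22, adjusted p = 1.6e-05) and higher in Hox-/- endoderm cultures (0.32 ± 0.086, adjusted p = 0.0071). Its rise from mES cells to endoderm cultures was 2.15 ± 0.13 in wild type and 3.87 ± 0.16 in Hox-/-. The interaction was 1.71 ± 0.24 (adjusted p = 3.4e-05).

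In gastruloids Lats2 rose with time. Wild-type Activin A libraries went from 5.60 and 4.22 to 14.6 and 13.7 CPM, Hox-/- libraries from 5.66 and 6.42 to 9.83 and 11.9 CPM, and Chiron libraries from 9.73 and 7.63 to 20.4 and 19.6 CPM. All 120 h libraries were above the 96 h libraries of their group. The log2 rises were 1.46 ± 0.15, 0.84 ± 0.15 and 1.12 ± 0.13 (adjusted p = 2.3e-12, 3.8e-06 and 1.1e-07). The interaction of genotype and time was -0.63 ± 0.21 (adjusted p = 0.016), and it was lost with DESeq2, with limma and without any of 4 libraries (adjusted p up to 0.14), which were replicate 2 of each genotype at 96 h and replicate 1 of each at 120 h. At 96 h, Lats2 was 1.83-fold lower with Activin A than with Chiron (-0.88 ± 0.15, adjusted p = 1.5e-05).

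Yap1, which encodes the coactivator YAP (chr9:7931999-8004596, minus strand), was the steadiest of the 10 genes. Its means lay between 174 CPM in wild-type Activin A gastruloids at 120 h and 288 CPM in Hox-/- endoderm cultures. Only 1 genotype comparison was called, at 120 h in Activin A gastruloids, where Hox-/- libraries had 212 and 208 CPM and wild-type libraries 179 and 169 CPM (0.38 ± 0.045, adjusted p = 6.1e-10). The Hox-/- libraries were both above the wild-type ones. At 96 h the values were 221 and 225 against 222 and 219 CPM (0.07 ± 0.038), and the interaction was 0.31 ± 0.059 (adjusted p = 3.1e-05). Yap1 was higher in endoderm cultures than in mES cells by 0.32 ± 0.049 in wild type and 0.37 ± 0.049 in Hox-/-.

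Wwtr1, which encodes the coactivator TAZ (chr3:57455649-57575910, minus strand), was highest in mES cells and endoderm cultures and fell late in Activin A gastruloids. It had 57.3 and 60.1 CPM in wild-type and 67.0 and 66.8 CPM in Hox-/- mES cells, and 59.4 to 67.7 CPM in all 6 endoderm libraries. Wild-type Activin A libraries fell from 47.5 and 46.1 to 22.4 and 22.3 CPM, and Hox-/- libraries from 46.0 and 49.4 to 18.3 and 17.0 CPM, whereas Chiron libraries had 35.2 and 33.6 CPM at 96 h and 38.8 and 35.9 CPM at 120 h. The falls were -1.14 ± 0.078 and -1.44 ± 0.080 (adjusted p = 2.5e-18 and 8.2e-22), and the Chiron change was 0.02 ± 0.075. The difference between the 2 falls, -0.30 ± 0.12 (adjusted p = 0.038), was lost with DESeq2, with limma, with no filter on low counts and in 6 of 8 fits without 1 library (adjusted p up to 0.18). Those 6 lacked either replicate of either genotype at 120 h or replicate 2 of either genotype at 96 h. At 96 h Activin A exceeded Chiron in Wwtr1 by 0.38 ± 0.066 (adjusted p = 2.3e-05). On FPKM, Yap1 made up 78.0% to 93.0% of the sum of Yap1 and Wwtr1 over the groups.

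The TEAD genes, which encode the DNA-binding partners of YAP and TAZ, had different levels in mES cells and in the differentiated groups. Tead2 (chr7:45215753-45233644, plus strand, overlapping Cd37 on the opposite strand) had 128 and 129 CPM in wild-type and 169 and 160.1 CPM in Hox-/- mES cells. It had 378 to 439 CPM in wild-type and 427 to 445 CPM in Hox-/- endoderm cultures, and 593 to 853 CPM in gastruloids. Its share of the summed TEAD FPKM was 58.9% and 62.6% in the 2 mES groups, 83.2% and 83.5% in the 2 endoderm groups and 91.2% to 94.4% in gastruloids. Tead2 rose from mES cells to endoderm cultures by 1.51 ± 0.064 in wild type and 1.33 ± 0.063 in Hox-/- (adjusted p = 1.7e-14 and 9.8e-14). It was higher in Hox-/- mES cells (0.35 ± 0.051, adjusted p = 2.5e-06) and in Hox-/- Activin A gastruloids at 96 h (0.22 ± 0.037) and 120 h (0.24 ± 0.038). In endoderm cultures the difference was 0.14 ± 0.061 (adjusted p = 0.077), and without wild-type replicate 3 it was called (adjusted p = 0.0022).

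Tead4, whose product specifies trophectoderm in the early embryo (chr6:128224288-128300823, minus strand), went the other way. It had 59.0 and 60.5 CPM in wild-type and 67.5 and 69.2 CPM in Hox-/- mES cells. In endoderm cultures it had 13.4, 13.5 and 14.2 CPM in wild type and 6.14, 5.66 and 6.80 CPM in Hox-/-, with no overlap. Its share of the summed TEAD FPKM was 17.5% and 16.5% in mES cells and at most 1.95% in every other group. The fall from mES cells to endoderm cultures was -2.24 ± 0.076 in wild type and -3.54 ± 0.083 in Hox-/-, and the interaction was -1.30 ± 0.12 (adjusted p = 1.3e-07).

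Among gastruloids, Tead4 had 4.93 and 5.39 CPM in wild-type and 1.96 and 2.01 CPM in Hox-/- Activin A gastruloids at 96 h, a log2 fold change of -1.33 ± 0.19 (adjusted p = 1.1e-07). At 120 h the values were 8.22 and 8.56 against 7.16 and 5.99 CPM (-0.24 ± 0.18, adjusted p = 0.28), and the interaction was 1.09 ± 0.26 (adjusted p = 0.00074). Chiron gastruloids had 2.86 to 3.99 CPM. The 96 h excess over Chiron was 0.43 ± 0.16 (adjusted p = 0.021), and it was lost without Activin A replicate 2 or Chiron replicate 1 (adjusted p up to 0.11).

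Tead3 (chr17:28331671-28350817, minus strand) was low in mES cells, at 4.12 and 3.73 CPM in wild type and 2.69 and 1.93 CPM in Hox-/-. Endoderm cultures had 30.5, 33.8 and 36.3 CPM in wild type and 48.1, 42.0 and 38.9 CPM in Hox-/-, so that the Hox-/- libraries were higher there and lower in mES cells. The log2 rise from mES cells was 2.97 ± 0.14 in wild type and 4.12 ± 0.16 in Hox-/-, with an interaction of 1.15 ± 0.27 (adjusted p = 0.0035). The difference between genotypes was 0.37 ± 0.086 in endoderm cultures (adjusted p = 0.0030). In gastruloids Tead3 rose between the times in every treatment, by 1.54 ± 0.082 in wild-type Activin A, 0.99 ± 0.090 in Hox-/- Activin A and 1.08 ± 0.091 in Chiron gastruloids. At 120 h it had 49.8 and 46.1 CPM in wild-type and 32.9 and 30.2 CPM in Hox-/- Activin A gastruloids (-0.49 ± 0.083, adjusted p = 1.7e-06). At 96 h all 4 libraries lay at 14.9 to 16.4 CPM, and the interaction was -0.54 ± 0.12 (adjusted p = 0.00030).

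Tead1 (chr7:112679318-112906807, plus strand) was highest in mES cells, at 236 to 271 CPM, and lower in endoderm cultures (178 to 214 CPM) and gastruloids (98.1 to 130 CPM). It fell from mES cells to endoderm cultures by -0.34 ± 0.059 in wild type and -0.51 ± 0.059 in Hox-/- (adjusted p = 3.0e-05 and 1.1e-07). At 96 h in Activin A gastruloids it was called higher in Hox-/- (0.21 ± 0.046, adjusted p = 0.00030), which was lost without wild-type replicate 2 (adjusted p = 0.054). The call at 120 h (0.15 ± 0.054, adjusted p = 0.018) was lost without wild-type replicate 2 or either Hox-/- replicate (adjusted p up to 0.15), and with total counts as the only scaling.

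**Figure D4:**
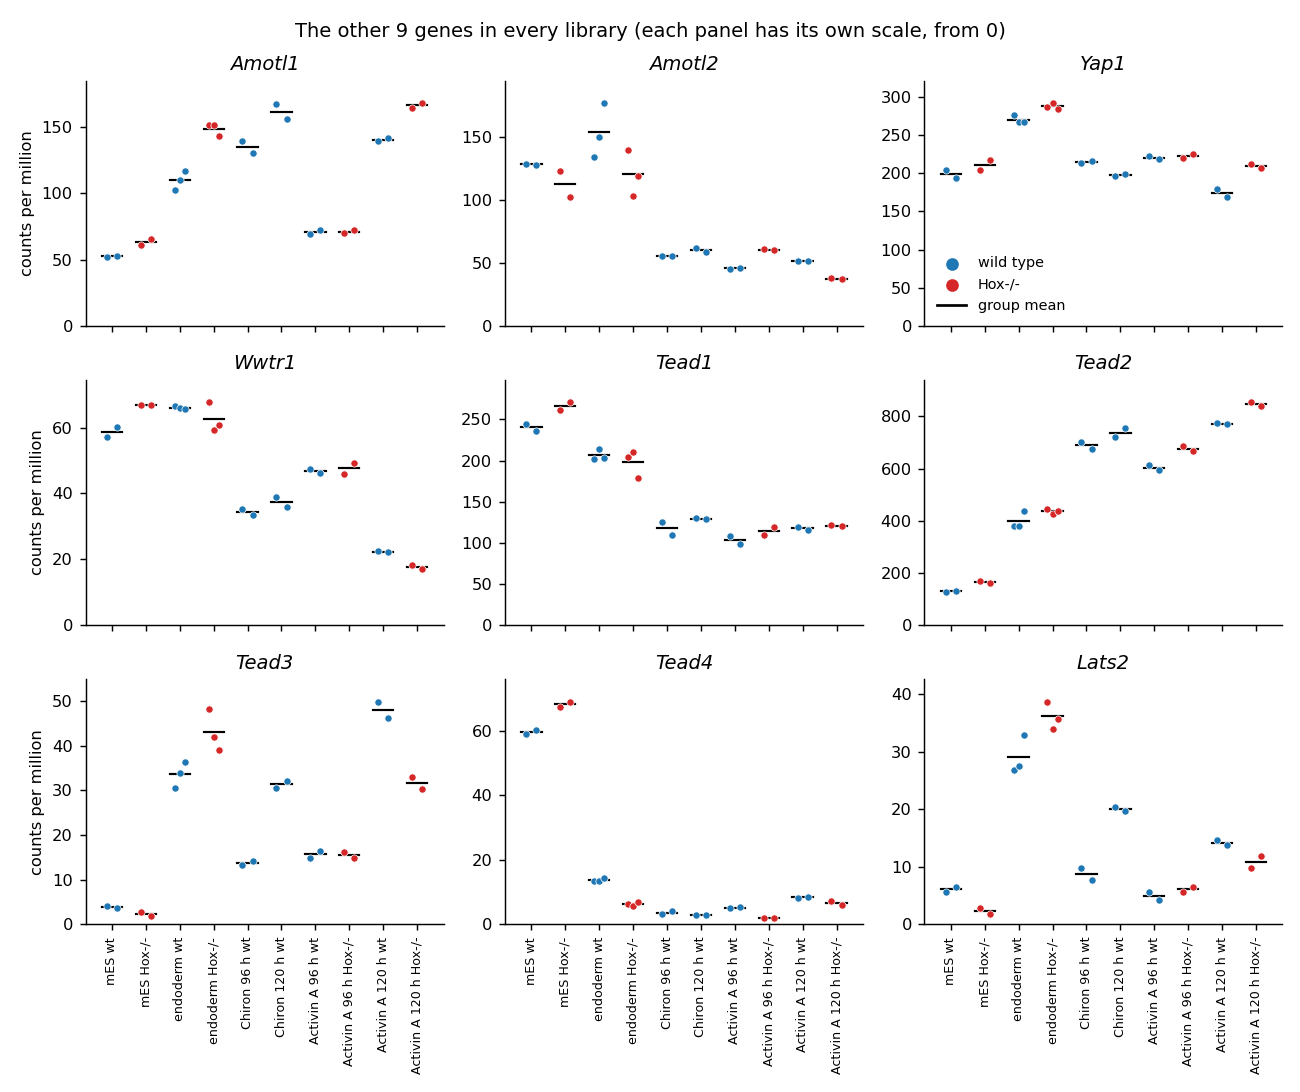
Level of the 9 genes other than Amot in each library, in CPM on linear axes that start at 0, with 1 panel per gene and the 10 groups along the x axis. Points are libraries and short bars are group means. Tead4 is high in mES cells alone, and Tead3 is lowest there. Lats2 is low in mES cells and also in Activin A gastruloids at 96 h. The group means of Yap1 stay between 174 and 288 CPM.

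The calls of the 10 genes were counted beside those of all genes tested. In mES cells 5 members were higher and 3 lower in Hox-/- cells, against 12.4% and 10.8% of all genes tested. These calls rest on 2 libraries a group, and most of them on small differences. Lats2 and Tead3 had larger differences at low counts, 22 to 85 and 23 to 62 a library. DESeq2 called 2 members, limma on log2(FPKM + 1) called 0 of 9 members with 4 at an unadjusted p under 0.05, and leaving out 1 library gave 2 to 7 calls. Wwtr1 (0.19), Tead1 (0.14), Tead3 (-0.76) and Tead4 (0.19) were each lost in 2 or 3 of the 4 fits that left out 1 library. Wild-type replicates 1 and 2 were among the libraries for all 4 genes, joined by Hox-/- replicate 2 for Tead3 and Tead4 and by Hox-/- replicate 1 for Wwtr1. Their highest adjusted p was 0.33 for Wwtr1, 0.36 for Tead1, 0.19 for Tead3 and 0.25 for Tead4. Tead2 and Lats2 kept their calls in all 4 fits.

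In endoderm cultures 3 members were higher and 3 lower in Hox-/- cells, against 23.1% of all genes tested in each direction. In Activin A gastruloids at 96 h 3 were higher and 2 lower, against 22.2% and 16.7%. At 120 h 4 were higher and 3 lower, against 24.9% and 25.5%. The 3 include Amot, which was named from the wild-type 120 h libraries, so its place among them is a description and not a test. With total counts as the only scaling, the higher share of all calls went from 57.0% to 42.6% at 96 h and from 49.4% to 34.6% at 120 h, and that scaling moved all log2 fold changes at 120 h by -0.11. No member's call changed direction under it. Limma on FPKM called 3 members at 96 h. Among the genotype comparisons on counts, Amot had the highest fold of the 10 genes in endoderm cultures, Tead4 in gastruloids at 96 h and Lats2 in mES cells.

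**Figure D5:**
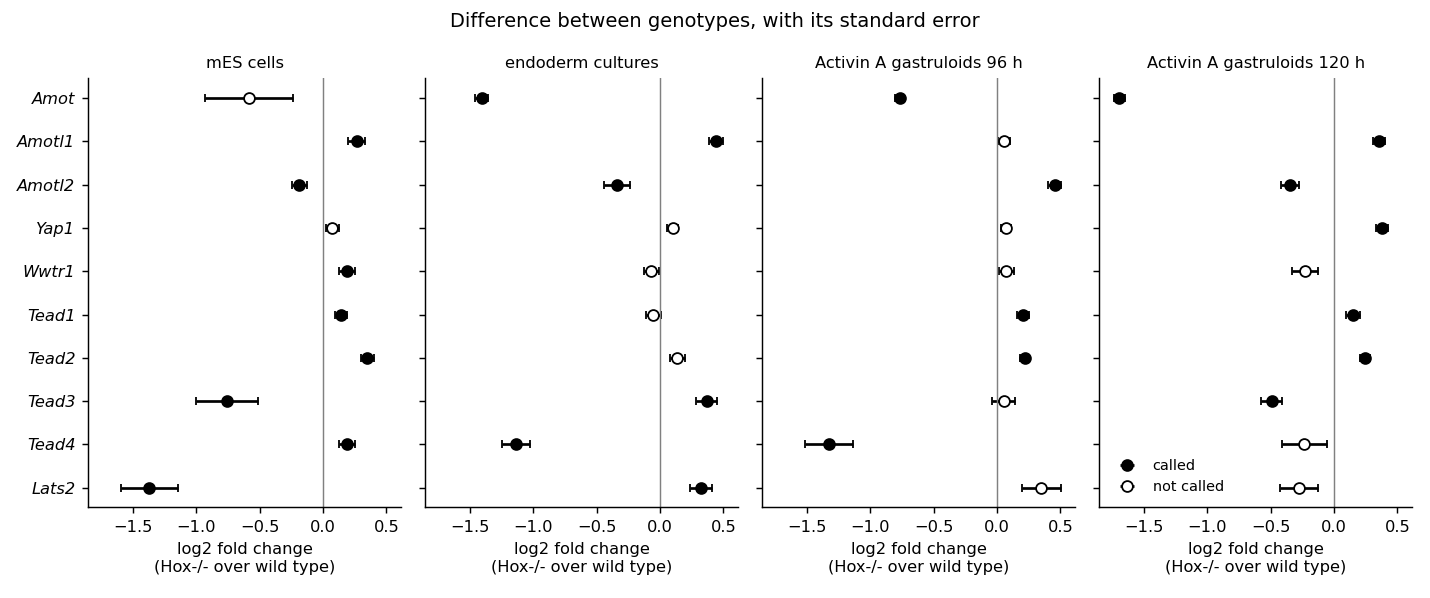
Log2 fold change of Hox-/- against wild type for the 10 genes in mES cells, endoderm cultures and Activin A gastruloids at 96 h and 120 h, 1 panel per comparison. Points are edgeR estimates, bars are 1 approximate SE (from the F statistic) to each side and filled points passed the adjusted threshold of 0.05. Amot lies at -1.41, -0.77 and -1.69 in the last 3 panels. Its point at 120 h is a description whatever its fill, since Amot was named from the wild-type 120 h libraries.

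The treatment, time and differentiation comparisons were counted in the same way. Activin A against Chiron at 96 h called 3 members higher and 5 lower (31.3% and 30.2% of all genes). Between 96 h and 120 h, 6 members rose and 2 fell in wild-type Activin A gastruloids (37.2% and 37.8%), 5 rose and 4 fell in Hox-/- Activin A gastruloids (34.9% and 37.6%), and 3 rose and 2 fell in Chiron gastruloids (28.5% and 33.2%). The interaction of genotype and time was called higher for 3 members and lower for 5 (18.7% and 20.2%). From mES cells to endoderm cultures 6 members rose and 2 fell in wild type (41.6% and 38.3%), and 6 rose and 3 fell in Hox-/- (42.7% and 37.9%). The interaction of genotype and differentiation was called higher for 2 members and lower for 1 (11.6% and 12.5%). The counts that use wild-type 120 h gastruloids include Amot, which was named from these libraries. The 2 sampling times also differ in depth, since 120 h gastruloid libraries held fewer counts than 96 h ones, and the part of depth was not tested. Total counts as the only scaling moved all log2 fold changes by 0.11 in the Chiron time comparison and by 0.12 in the wild-type differentiation comparison.

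Smaller time and differentiation changes rest on single libraries. The Tead1 rise in wild-type Activin A gastruloids (0.12 ± 0.051) was lost without 96 h replicate 2 or 120 h replicate 1 (adjusted p up to 0.51). The Yap1 fall in Hox-/- Activin A gastruloids (-0.10 ± 0.041) was lost without 96 h replicate 2 or either 120 h replicate (adjusted p up to 0.16). The Wwtr1 fall from Hox-/- mES cells to endoderm cultures (-0.18 ± 0.063) was lost without mES replicate 2 or endoderm replicate 2 (adjusted p up to 0.065). The Tead1 deficit in Activin A against Chiron gastruloids at 96 h (-0.25 ± 0.060) was lost without Activin A replicate 2 or Chiron replicate 1 (adjusted p up to 0.10). In the other direction, leaving out 1 library added a call for Lats2 at 96 h between genotypes (adjusted p = 0.014 without wild-type replicate 1), and for Tead1 and Tead4 over time in Chiron gastruloids (adjusted p = 0.013 and 0.042 without 96 h replicate 1). Other calls of the treatment comparison, Amotl2 at -0.34 and Tead2 at -0.25, held in each of these fits.

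Wild-type Activin A against Chiron gastruloids at 120 h are given as values only. The log2 fold change was 3.19 for Amot, 1.48 for Tead4, 0.56 for Tead3 and 0.02 for Tead2. It was -0.80 for Wwtr1, -0.55 for Lats2, -0.27 for Amotl2, -0.26 for Amotl1, -0.23 for Yap1 and -0.19 for Tead1.

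The wider pathway was followed in 4 lists, whose counts stand beside the shares of all genes tested that were called higher and lower. These shares were 12.4% and 10.8% in mES cells, 23.1% and 23.1% in endoderm cultures, 22.2% and 16.7% in Activin A gastruloids at 96 h, and 24.9% and 25.5% at 120 h. For Activin A against Chiron at 96 h they were 31.3% and 30.2%. Counts near these shares say nothing about a list. The kinase cassette and its activators (17 genes) had 3 genes higher and 1 lower of 15 tested in Hox-/- mES cells, 7 and 3 of 17 in endoderm cultures, 4 and 5 of 17 in Activin A gastruloids at 96 h, and 8 and 4 of 17 at 120 h. The median log2 fold change of the list was 0.04, 0.11, 0.03 and 0.27, beside medians of all genes tested between -0.02 and 0.04. In mES cells Map4k4, which encodes a kinase that activates LATS (0.29), Stk3, which encodes an MST kinase (0.33), and Wwc2 (0.24) were higher. In endoderm cultures Taok3, a kinase gene, was lower (-0.76), Wwc1, which encodes the scaffold KIBRA, was lower (-0.46), and Dchs1, which encodes a protocadherin, was higher (0.70).

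At 96 h in Activin A gastruloids, Fat4, which encodes the partner protocadherin of Dchs1, was higher in Hox-/- by 1.31. Mob1b and Mob1a, which encode cofactors of LATS, were higher by 0.83 and 0.34. At 120 h Frmd6 (0.76), Map4k4 (0.58) and Nf2, which encodes merlin (0.33), were higher. Against Chiron at 96 h, Activin A gastruloids had 2 genes of the list higher and 8 lower, among them Frmd6 (-1.66), Dchs1 (-1.43) and Mob1b (-0.85).

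The list of LATS inhibitors and binders of YAP or TEAD (15 genes) had 2 higher and 2 lower of 13 in Hox-/- mES cells, 6 and 1 of 13 in endoderm cultures, 6 and 3 of 12 in Activin A gastruloids at 96 h, and 5 and 3 of 12 at 120 h. Ptpn14, which encodes a phosphatase that binds YAP and stands in the target list too, was lower in Hox-/- mES cells (-0.57) and higher in endoderm cultures (0.54) and at 96 h (0.61). Tnks and Rnf146 encode the enzymes that mark angiomotins for degradation. Tnks was lower in endoderm cultures (-0.37) and at 96 h (-0.52), and Rnf146 was higher in endoderm cultures (0.30). Tnks2 and Tnks were higher in mES cells (0.24 and 0.17). Nedd4l, a ubiquitin ligase gene, was higher at 96 h (0.51) and lower at 120 h (-0.71), where Ajuba, a LATS inhibitor gene, was lower (-0.43) and Strn4 was higher (0.28). At 96 h Activin A against Chiron gave 3 higher and 5 lower of 12, with Ptpn14 at -0.99, Vgll4 at -0.92 and Nedd4l at 1.01.

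The list of polarity and junction partners of the angiomotins (12 genes) had 3 of 12 called in Hox-/- mES cells, each higher. It had 3 higher and 5 lower in endoderm cultures, 3 and 3 at 96 h, and 6 and 3 at 120 h. Crb3, which encodes an apical polarity protein of epithelia, was lower in Hox-/- endoderm cultures (-1.67) and at 96 h (-1.14). At 120 h it had 0.219 CPM in Hox-/- and 17.4 CPM in wild-type Activin A gastruloids. Pard6b, another apical polarity gene, was lower in endoderm cultures (-0.97) and at 120 h (-1.57). Magi1, a junction scaffold gene, was higher at 96 h (0.34) and 120 h (0.71), and Prkci, which encodes an atypical protein kinase C, was higher at 96 h (0.21). In mES cells Tjp1 (0.20), Patj (0.57) and Magi1 (0.26) were higher. Activin A against Chiron at 96 h gave 4 higher and 6 lower, with Patj, whose product binds angiomotin, at 1.18, Crb2 at -1.40 and Magi1 at -0.88.

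The list of YAP, TAZ and TEAD targets (20 genes) had 1 higher and 3 lower of 16 in Hox-/- mES cells, with a median of 0.02. It had 10 and 3 of 20 in endoderm cultures (median 0.20), 6 and 3 of 19 at 96 h (median 0.10), and 5 and 9 of 19 at 120 h (median -0.17). The interaction of genotype and time was called higher for 3 and lower for 10 of 19, with a median of -0.47 beside -0.06 for all genes tested. Of all genes tested, 18.7% were called higher and 20.2% lower in this interaction. In mES cells Nt5e was lower (-2.02) and Dock5 higher (0.29). In endoderm cultures Tgfb2, a ligand gene, was higher (1.06, 272 against 131 CPM), Foxf2 was higher (1.45), and Ankrd1 was lower (-1.56, 7.15 against 21.2 CPM). At 96 h Igfbp3, an insulin-like growth factor binding protein gene, was higher in Hox-/- (0.91) and Tgfb2 was higher (1.39). At 120 h Igfbp3 was lower (-0.96), Nuak2, a kinase gene, was lower (-2.70, 3.91 against 27.8 CPM) and Fjx1 was higher (0.82). Ccn1 and Ccn2, the best known targets, were chosen after their values were seen. They were lower in Hox-/- gastruloids at 120 h by -0.90 and -1.30, with interactions of -1.10 and -1.34. At 96 h Activin A against Chiron gave 9 higher and 8 lower, with Igfbp3 at 3.08 and Nt5e at 2.26.

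From mES cells to endoderm cultures 41.6% of all genes tested were called higher and 38.3% lower in wild type, and 42.7% and 37.9% in Hox-/-, and the list counts are to be read beside these shares. The target list had 17 higher and 2 lower of 20 in both genotypes, with medians of 2.79 in wild type and 3.17 in Hox-/-, beside 0.07 and 0.10 for all genes tested. In wild type Tgfb2 rose by 6.05, Ccn1 rose by 4.85 (9.44 to 293 CPM) and Myof fell by 2.56. The polarity list had 9 higher and 3 lower of 12 in wild type (median 0.83), with Crb2 at 6.15, Patj at 4.35 and Mpdz at 4.21, the last 2 encoding binding partners of angiomotin. The cassette had 10 higher and 6 lower of 17 in wild type, with Taok3 at 1.89 and Nf2 at -0.95. The inhibitor list had 9 higher and 2 lower of 13, with Vgll4 at 1.76, Limd1 at 1.55 and Ptpn14 at 1.36. In Hox-/- cells Dchs1 and Fat4 were at or under 3 counts in both mES libraries. Taken against 3 counts per library, they were at least 330-fold and at least 103-fold higher in endoderm cultures.

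Genes whose levels were most like those of Amot over the 10 group means included Kiz (Pearson r of log2(CPM + 1) 0.984), Ltbr (0.977), Adamts6 (0.977) and Khk (0.977), out of 13271 other genes. Kiz ranged from 6.13 to 21.7 CPM, a far smaller range than that of Amot. Of the other 9 members, Tead3 (0.85) and Tead2 (0.79) were nearest to Amot, followed by Lats2 (0.57), Amotl1 (0.52) and Yap1 (0.32). Wwtr1 (-0.30), Amotl2 (-0.35), Tead1 (-0.64) and Tead4 (-0.75) had negative values. These values describe 10 groups that share libraries between genes. Amot was far lower in the mES groups than elsewhere, and r was not computed without them. Outside mES cells Tead2 was highest in Hox-/- Activin A gastruloids at 120 h (846 CPM, with Amot at 147 CPM). It was lowest in wild-type endoderm cultures (399 CPM, with Amot at 778 CPM).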

How the data were processed

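RNA was measured in 22 libraries, and samples were grouped by the submitters' titles and sample labels. The deposited gene tables hold raw read counts and, in separate tables, FPKM, as the file headers name it. Reads were processed with cutadapt 1.16, STAR 2.7.7a and Cufflinks 2.2.1 on mm10, per the submitters' processing notes. Per the labels' protocols, the library kit keeps strand. The counting tool and its strand setting are not given in the sources used here, so a gene and an overlapping gene on the other strand may share reads.

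CPM were computed from the deposited counts with each table's gene total. Counts were tested with edgeR 4.0.16 (R 4.3.3): filterByExpr, TMM scaling, quasi-likelihood fit with 1 coefficient per group, and Benjamini-Hochberg adjustment over all genes of a table, called at 0.05. There were 12 comparisons. The 4 groups of mES and endoderm libraries were fitted together for differentiation, and gastruloids by table. Alternatives were DESeq2 1.42.0, limma 3.58.1 on log2(FPKM + 1) and log2(FPKM + 0.1), other scalings and filters, a replicate block and leaving out each library. The edgeR steps were tested on simulated data.

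The 10 members and the gene lists were chosen with earlier results of these data known. All members are named. In each wider list and each genotype, treatment or differentiation comparison, up to 3 called genes with the smallest p and no overlap between libraries could be named, and the 5 genes most like Amot. Genes of mouse chromosome 18 were left out, and some genes that the rule names are not reported here. A fold against a group at or under 3 counts is given as a lower bound.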

Additional observations from a re-analysis of the deposited data

Results flagged for a closer look

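The genotype effect on 8 of the 10 genes differed between 96 h and 120 h in Activin A gastruloids by the interaction test of edgeR. Of all genes tested, 18.7% were called higher and 20.2% lower in this interaction. The interaction, the Hox-/- against wild-type log2 fold change at 120 h minus that at 96 h, was -0.93 for Amot, 0.30 for Amotl1, -0.80 for Amotl2, 0.31 for Yap1, -0.30 for Wwtr1, -0.54 for Tead3, 1.09 for Tead4 and -0.63 for Lats2. The value for Amot is a description, since the gene was named from wild-type 120 h libraries that enter it. For Amotl2 the genotype difference was higher in Hox-/- at 96 h and lower at 120 h, each past the test. The values for Wwtr1 and Lats2 were lost in several fits without 1 library.

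The genotype effect on 3 genes differed between endoderm cultures and mES cells by the same test. Of all genes tested, 11.6% were called higher and 12.5% lower, and a count near such shares says nothing about the members as a set. The interaction was 1.15 for Tead3, -1.30 for Tead4 and 1.71 for Lats2. Tead3 and Lats2 were lower in Hox-/- mES cells and higher in Hox-/- endoderm cultures, and Tead4 was higher in Hox-/- mES cells and lower in Hox-/- endoderm cultures. The mES calls of Tead3 and Tead4 were each lost without any of 3 libraries.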

How the results depend on the processing

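No result on the 10 genes that was called in either fit reversed under any alternative. A change of sign between 2 fits without a call was counted as the same. The values that answer a comparison were the tests of Amot and the counts of members called. Of these, 306 stayed the same. For a test this means the direction and side of the threshold, and for a count a value within 1.5 times. A further 9 counts moved by over 1.5 times, and 2 tests gained and 1 lost a call. In mES cells edgeR called 8 members, DESeq2 2, limma 0 of 9 with either pseudocount on FPKM (4 at an unadjusted p under 0.05 in each), and fits without 1 library 2 to 7. In Activin A gastruloids at 96 h both limma fits called 3 members in place of 5. Limma on log2(FPKM + 0.1) called 5 members in place of 8 for genotype by time, with Amot at -0.86. With no filter on low counts, the change of Amot over time in wild-type Activin A gastruloids was -0.10. The genotype by differentiation value of Amot ran from -1.11 to -0.36 over fits without 1 library. The causes were not tested. Of all genes tested, the 3168 calls in mES cells became 944 with DESeq2, 210 and 111 with limma, and 1477 and 1690 without wild-type replicate 1 and 2. The 6922 calls in endoderm cultures became 4537 with limma on log2(FPKM + 0.1), the 6546 at 96 h became 3195 with DESeq2 and 2801 and 2425 with limma, the 10655 for treatment became 6871 and 6268 with limma, and the 6544 for genotype by time became 4145, 4301 and 3924. Among the tests of the 9 members other than Amot, 20 gained and 106 lost their call. Same-numbered replicates correlated at -0.0701 to 0.106, so no pairing by number was seen, and a shared culture day was not tested. The replicate block changed no member's call, with 8 calls in mES cells and -0.80 for genotype by differentiation of Amot. Over all genes tested it raised the mES calls from 3168 to 3793. Amot had 11 to 32 counts in each mES library.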
